A study of Bos indicus with 9 samples.

Results

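The genes described here serve protein folding and the stress response of the endoplasmic reticulum in the bovine corpus luteum. They were taken from a list of 54 genes, and 46 of these were found as the only gene symbol of at least 1 probe set, out of 9134 genes measured in that way. The list groups genes by function, and it was drawn up with earlier results of these arrays known. By role, the measured genes are 15 chaperones and co-chaperones, 6 members of the disulfide isomerase family, 16 parts of the translocon and the oligosaccharyltransferase, 3 factors of the unfolded protein response and 6 genes of the degradation pathway. The listed genes XBP1, ATF6, ERN1, EDEM1, PDIA6, ERP44, UGGT1 and RPN1 were not analysed here.

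The tissue came from Nelore crossbred cattle of Bos indicus type, aged 2 to 5 years and kept on pasture with a supplement, and was taken on day 6 after ovulation, at slaughter. Every cow, controls included, was given estradiol benzoate and a progesterone device to synchronise its oestrous cycle. The control group of 3 cows had no further hormone, the stimulated group of 3 was given equine chorionic gonadotropin (eCG), an ovary-stimulating hormone, at 400 IU on day 8 of that protocol, and the superovulated group of 3 was given it at 2000 IU on day 4. Dose and day of eCG changed together, so dose and day cannot be told apart. The labels call the 3 arrays of a group biological replicates, and each was read as 1 cow.

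Membrane and secreted proteins enter the endoplasmic reticulum through the Sec61 channel, are glycosylated as they enter, and fold with the help of chaperones and disulfide isomerases. When unfolded protein builds up, the sensors IRE1 (ERN1), PERK (EIF2AK3) and ATF6 raise the transcription of these helpers and slow translation, and proteins that fail to fold are sent back to the cytosol for degradation. The corpus luteum is the gland that forms from the ovulated follicle and secretes progesterone, and its cells also make peptide hormones and rebuild their matrix, so that both the secretory route and the membrane of this organelle are in use there.

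Array medians lay between 4.18 and 4.25 on the log2 scale and upper quartiles between 8.27 and 8.35, so the arrays were close in overall level. Markers of steroid-producing luteal cells had a mean over 9 measured markers between 11.88 and 12.15, with STAR, the cholesterol transporter of steroid synthesis, between 14.55 and 14.85. The hormone receptors among them were dimmer, LHCGR at 5.44 to 7.07 and PRLR at 2.14 to 3.97, and the log2 difference of PRLR was 0.92 in stimulated against control cows and -1.15 in superovulated against stimulated cows (limma adjusted p = 0.64 and 0.35). Markers of macrophages and related myeloid cells differed by group, with means over 12 of 14 listed markers of 5.45 to 6.52 in control cows, 6.92 to 8.00 in stimulated cows and 6.68 to 7.68 in superovulated cows. Against control, the median log2 difference over these 12 markers was 1.58 in stimulated and 0.55 in superovulated cows, with 0 of 12 passing the adjusted test in either comparison and 8 and 4 under an unadjusted p of 0.05. In a whole tissue, fewer cells of a type and less RNA per cell cannot be told apart, and the part of this difference in the results given here was not tested. The array's own control transcripts, read as the 3′ minus the 5′ signal, differed between groups for cyclophilin by 0.13 in stimulated and 0.11 in superovulated cows against control (exact permutation p = 0.1 each, 2-sided, the smallest that 3 against 3 allows). At the same exact p, GST differed by 0.34 in superovulated against control and 0.36 against stimulated cows, eIF-4E by 0.15 in superovulated against control and GAPDH by 0.04 in stimulated against control cows. EF1A differed by 0.16 in stimulated and 0.13 in superovulated cows against control (exact permutation p = 0.2 each), and actin by -0.03 and -0.07 (exact p = 0.8 and 0.7).

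The probe sets of these genes had mean signals between 3.81 for SDF2L1 and 13.97 for SEC61G, although the brightness of a probe set does not rank transcripts. The median SD within groups was 0.12 over the 46 genes, beside 0.18 over all 9134 genes. This comparison is not matched for brightness, since 37 of the 46 genes had a mean above 10, beside 26.17% of all genes. For 37 of the 46 the spread between arrays also settled the reading, so a low spread cannot be read as a trait of these genes. Translocon and transferase genes had a median SD of 0.09, chaperones 0.14, degradation genes 0.14, isomerases 0.16 and response factors 0.25. The steadiest gene was the prolyl isomerase PPIB, with an SD of 0.05, and the most variable was CRELD2, a stress-inducible chaperone, with 0.72.

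**Figure D1:**
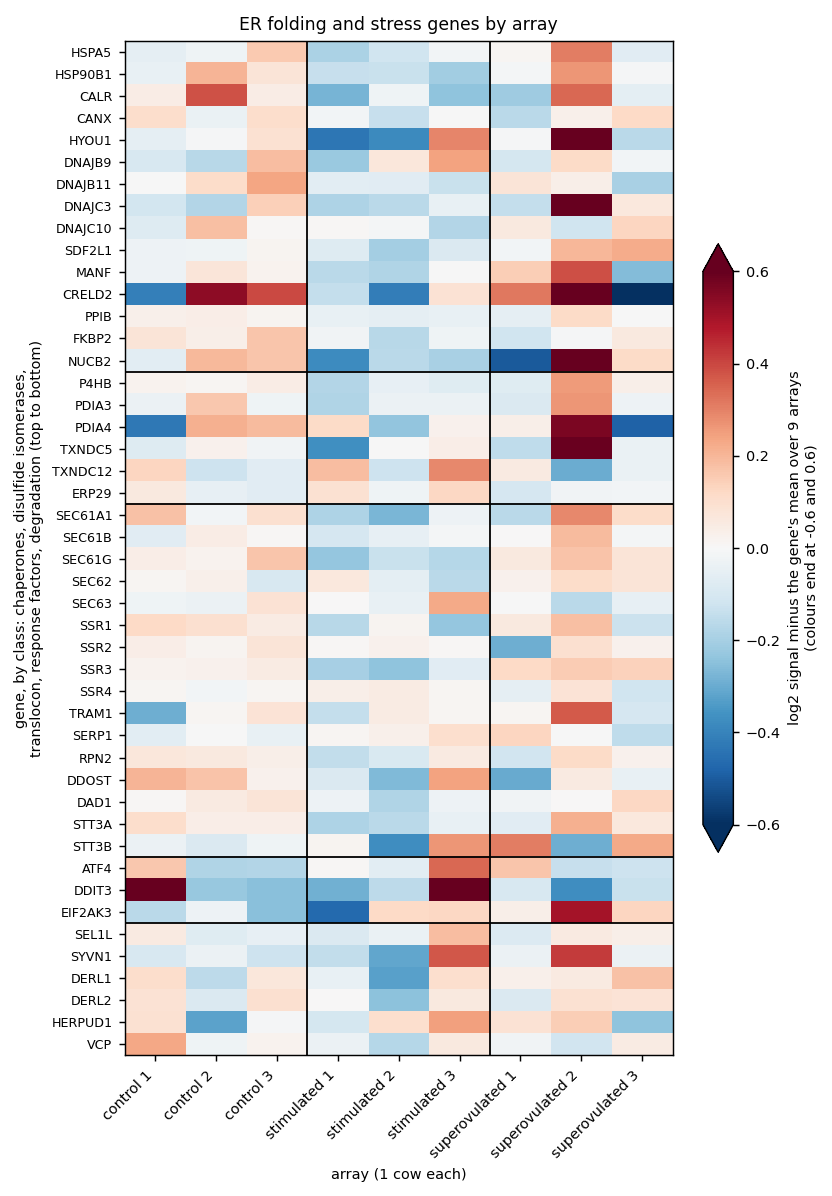
Signal of each of the 46 genes (rows, by class) on each of the 9 arrays (columns, 1 cow each) as the log2 difference from the gene's own mean over the arrays, with colours ending at -0.6 and 0.6. Stimulated arrays 1 and 2 are mostly blue among chaperones and translocon genes, superovulated array 2 is mostly red, and the response factor DDIT3 is red on control array 1 and stimulated array 3.

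No gene of the 46 passed an adjusted p under 0.05 in any comparison by limma's moderated test. For any difference among the 3 groups, 0 of 46 passed, with a smallest adjusted p of 0.48, beside 0.0109% of all genes. At an unadjusted p under 0.05 the same test named 3 of 46, beside 7.52% of all genes. These 3 were SSR3, SEC61G and SDF2L1, in order of p.

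In stimulated against control cows, 33 of the 46 genes had lower means and 13 higher means, while 50.85% of all genes were lower. The median log2 difference was -0.10, beside 0.00 over all genes, and the genes ranged from -0.35 (NUCB2) to 0.16 (ATF4). By limma 0 of 46 passed in either direction, with a smallest adjusted p of 0.59; of all genes 0.0% passed as higher, 0.0109% as lower and 0.0109% in either direction. At an unadjusted p under 0.05, 3 of 46 were lower (6.52%) and 0 higher, beside 3.08% and 4.2% of all genes. For 14 of 46 genes (30.4%) every stimulated cow lay below every control cow, beside 6.36% of all genes. The reverse held for 1 gene, SERP1, beside 6.51% of all genes. Neither these shares nor those of the classes below are matched for brightness or spread, and genes read on the same cows are not independent. SERP1, a small membrane protein bound to the translocon, read 10.92, 10.98 and 10.93 in control cows and 10.99, 11.01 and 11.08 in stimulated cows, a difference of 0.08.

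The chaperones and co-chaperones leaned most to one side in this comparison. Their means were lower in stimulated cows for 14 of 15, with a median difference of -0.14, and in 7 of 15 all stimulated cows lay below all controls (46.7%, beside 6.36% of all genes). HSP90B1 (GRP94), the Hsp90 chaperone of this organelle, read 13.07, 13.31 and 13.19 in control cows, 12.97, 12.98 and 12.90 in stimulated cows and 13.10, 13.38 and 13.10 in superovulated cows. Every stimulated cow lay below every cow of the other groups. The difference of stimulated from control was -0.24 (SE 0.098, limma adjusted p = 0.77), and that of superovulated from stimulated was 0.24 (adjusted p = 0.51).

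HSPA5 (BiP), the Hsp70 chaperone that also holds the stress sensors inactive, read 13.19, 13.22 and 13.40 in control cows, 13.06, 13.13 and 13.23 in stimulated cows and 13.26, 13.55 and 13.18 in superovulated cows. The groups overlapped, and the highest value was that of superovulated cow 2. Its difference was -0.13 in stimulated against control cows (SE 0.113, adjusted p = 0.88), 0.06 in superovulated against control cows (adjusted p = 0.96) and 0.19 in superovulated against stimulated cows (adjusted p = 0.63). The 95% interval of the first ran from -0.40 to 0.13. A further bright probe set of HSPA5, with a mean of 11.65, gave -0.08, 0.12 and 0.21, and a dim one, with a mean of 2.85, gave -0.06, -0.10 and -0.04.

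CALR, the calcium-binding lectin chaperone of glycoproteins, read 12.41, 12.75 and 12.41 in control cows, 12.09, 12.34 and 12.13 in stimulated cows and 12.15, 12.71 and 12.31 in superovulated cows. Stimulated and control cows did not overlap, and superovulated cows spanned both. Its difference of -0.34 in stimulated against control cows had an adjusted p of 0.79. CANX, its membrane-bound relative, had a difference of -0.11, with overlap.

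FKBP2, a prolyl isomerase, read 11.49, 11.44 and 11.58 in control cows, 11.39, 11.24 and 11.38 in stimulated cows and 11.29, 11.40 and 11.47 in superovulated cows. It was lower in both treated groups on average, by a log2 difference of -0.16 (SE 0.076, adjusted p = 0.78) in stimulated and -0.12 (adjusted p = 0.86) in superovulated cows. PPIB, also a prolyl isomerase, read 13.45, 13.46 and 13.43 in control cows, 13.37, 13.37 and 13.37 in stimulated cows and 13.37, 13.53 and 13.41 in superovulated cows. The stimulated cows lay close together and below all controls, at a difference of -0.08. The array's control probe sets at the 3′ end, the middle and the 5′ end of the same transcript, which were not part of the test, gave -0.09, -0.19 and -0.22. They are the cyclophilin controls whose 3′ minus 5′ signal, given above, differed by 0.13 between these groups.

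DNAJB11, a J-domain partner of HSPA5, read 7.58, 7.69 and 7.82 in control cows, 7.52, 7.52 and 7.45 in stimulated cows and 7.66, 7.62 and 7.39 in superovulated cows. Its differences from control were -0.20 (adjusted p = 0.78) and -0.14 (adjusted p = 0.86). SDF2L1, which works with DNAJB11, was dim, with 26.6% of all genes dimmer. It read 3.78, 3.78 and 3.83 in control cows, 3.73, 3.60 and 3.72 in stimulated cows and 3.79, 4.01 and 4.03 in superovulated cows. Stimulated cows were below all others, at -0.11 against control (adjusted p = 0.88), and superovulated cows were 0.26 above stimulated cows (SE 0.080, adjusted p = 0.43).

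The other chaperones were less regular. NUCB2, a calcium-binding protein and the precursor of nesfatin, was lower in all stimulated than in all control cows (-0.35, adjusted p = 0.88), while its superovulated values were spread over 9.22, 10.55 and 9.84. The means of MANF (-0.14), HYOU1 (-0.18), DNAJC3 (-0.08), DNAJC10 (-0.10) and CRELD2 (-0.33) were also lower in stimulated cows, with overlapping cows. DNAJB9, a J-domain protein, was the 1 chaperone with a higher mean, at 0.05.

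**Figure D2:**
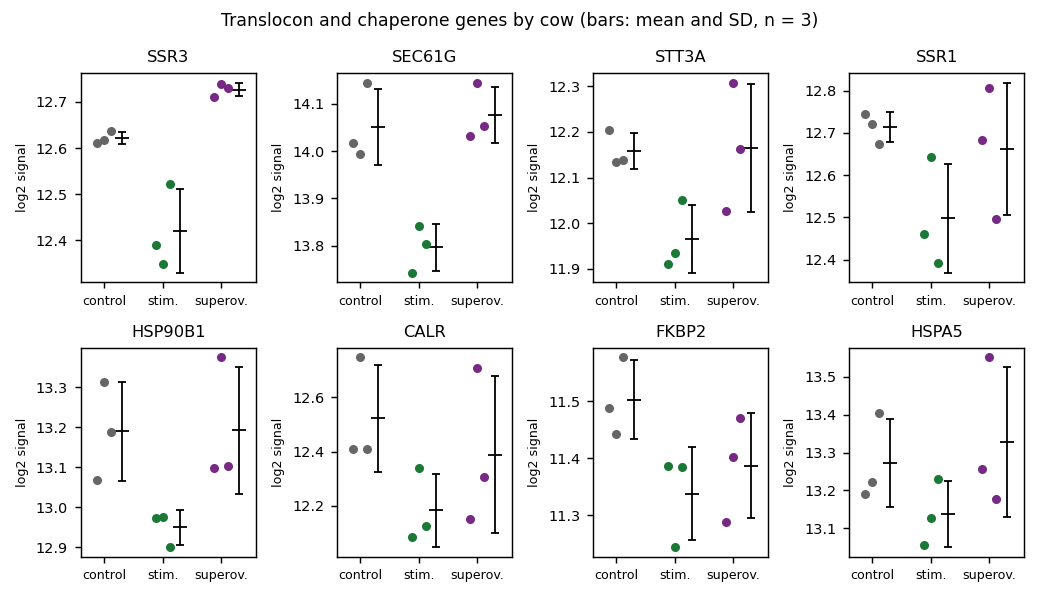
log2 signal (vertical axes, each with its own range, not starting at 0) of 8 translocon and chaperone genes in control, stimulated and superovulated cows, with a point per cow and bars for the mean and SD of 3 cows. For SSR3, SEC61G and HSP90B1 the 3 stimulated cows lie below all 6 other cows, while HSPA5 overlaps across groups.

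Among the disulfide isomerases 4 of 6 had lower means in stimulated than in control cows, with a median of -0.06. In 1 of 6 all stimulated cows lay below all controls (16.7%, beside 6.36% of all genes). That gene was P4HB, the protein disulfide isomerase that is also a subunit of prolyl hydroxylase. It read 13.02, 13.01 and 13.04 in control cows, 12.82, 12.94 and 12.92 in stimulated cows and 12.93, 13.25 and 13.03 in superovulated cows. The difference of stimulated from control was -0.13 (SE 0.089, adjusted p = 0.88), and that of superovulated from stimulated was 0.17 (adjusted p = 0.59).

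PDIA3, the isomerase that pairs with CALR and CANX, had a difference of -0.12 from control in stimulated cows, and PDIA4 -0.02. ERP29, an isomerase relative without the catalytic cysteines, read 12.02, 11.91 and 11.89 in control cows, 12.05, 11.93 and 12.08 in stimulated cows and 11.86, 11.94 and 11.94 in superovulated cows. Its mean was higher in stimulated cows by 0.08 (adjusted p = 0.88), with overlap. TXNDC12, a thioredoxin-like protein, had the highest difference of the class at 0.14, also with overlap.

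The translocon and oligosaccharyltransferase held the genes with the smallest p-values. Of the 16 genes 11 had lower means in stimulated than in control cows, with a median of -0.08. In 6 of 16 all stimulated cows lay below all controls and in 1 of 16, SERP1, above them (37.5% and 6.25%, beside 6.36% and 6.51% of all genes). SEC61G, the small gamma subunit of the channel, read 14.02, 13.99 and 14.14 in control cows, 13.74, 13.84 and 13.80 in stimulated cows and 14.03, 14.14 and 14.05 in superovulated cows. The control and superovulated cows shared 1 range, and the stimulated cows lay below it. The difference of stimulated from control was -0.25 (SE 0.068, 95% interval -0.41 to -0.10, adjusted p = 0.59), and that of superovulated from stimulated was 0.28 (interval 0.12 to 0.44, adjusted p = 0.36).

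SSR3, the gamma subunit of the translocon-associated protein complex, read 12.61, 12.62 and 12.64 in control cows, 12.39, 12.35 and 12.52 in stimulated cows and 12.71, 12.74 and 12.73 in superovulated cows. The 3 groups did not overlap at all, in the order stimulated, control, superovulated. The differences were -0.20 for stimulated against control (SE 0.063, adjusted p = 0.70), 0.11 for superovulated against control (adjusted p = 0.85) and 0.31 for superovulated against stimulated (interval 0.16 to 0.45, adjusted p = 0.33). A second SSR3 probe set, with a mean of 10.18, had the same order of means, at -0.63, 0.23 and 0.87.

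The partners of SSR3 in its complex were not alike. SSR1, the alpha subunit, read 12.74, 12.72 and 12.67 in control cows, 12.46, 12.64 and 12.39 in stimulated cows and 12.68, 12.81 and 12.50 in superovulated cows. Its stimulated cows lay below its controls (-0.22, adjusted p = 0.78), but another bright probe set, with a mean of 12.02, gave 0.05, and a dim one 0.11. SSR2 and SSR4 differed from control by -0.03 and 0.03, with overlapping cows.

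Of the other channel subunits, SEC61A1, the pore, read 11.67, 11.48 and 11.59 in control cows, 11.31, 11.22 and 11.46 in stimulated cows and 11.33, 11.78 and 11.60 in superovulated cows. The stimulated cows lay below the control cows, at -0.25 (adjusted p = 0.81), and SEC61B, the beta subunit, differed by -0.05. SEC63, a partner of the channel, was 0.05 higher by its brightest probe set, and a dimmer one (mean 6.21) gave 0.33, with an unadjusted p of 0.0093. SEC62, its companion, gave -0.03 and, by another probe set (mean 11.04), -0.14.

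STT3A, the catalytic subunit of the oligosaccharyltransferase that acts during translocation, read 12.20, 12.13 and 12.14 in control cows, 11.91, 11.93 and 12.05 in stimulated cows and 12.03, 12.31 and 12.16 in superovulated cows. Its stimulated cows were below its controls, at -0.19 (adjusted p = 0.78). DAD1, a small subunit of the same enzyme, did not overlap either, at -0.13. DDOST and RPN2 differed by -0.17 and -0.12, and STT3B, the catalytic subunit that acts later, by 0.02, all 3 with overlap.

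For 14 of the 46 genes the array holds further probe sets, 23 in all. In stimulated against control cows 9 of these 23, belonging to CANX, HYOU1, SSR1, STT3B, TRAM1 and TXNDC5, had the opposite sign to the one that stands for the gene, and 3 of the 9 had a mean above 6. These 3 were those of SSR1 (0.05, given above), of STT3B (-0.06, mean 8.79) and of TXNDC5 (0.11, mean 10.14, against -0.09). In superovulated against stimulated cows 4 of 23 differed in sign, and in superovulated against control cows 8 of 23. PDIA4 kept its sign between 2 probe sets but not its size, with -0.37 and 0.77 by the probe set at 7.32, and -0.02 and 0.07 by the brighter one, for stimulated against control and superovulated against stimulated cows.

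Of the 3 response factors, 2 had higher means in stimulated than in control cows and 1, DDIT3, a lower mean (median 0.07). The 95% intervals of all 3 held -0.10, the median of the 46 genes, so a departure from the other classes is not shown. ATF4, the transcription factor that PERK signalling brings up at translation, read 12.60, 12.26 and 12.26 in control cows, 12.44, 12.38 and 12.78 in stimulated cows and 12.61, 12.30 and 12.32 in superovulated cows. Each group held 1 cow well above its other 2, and the groups overlapped. The difference of stimulated from control was 0.16 (SE 0.149, 95% interval -0.19 to 0.51, adjusted p = 0.90) and that of superovulated from control 0.03 (adjusted p = 0.98).

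DDIT3 (CHOP), a target of ATF4 that is linked to cell death under stress, read 7.36, 6.28 and 6.26 in control cows, 6.22, 6.35 and 7.18 in stimulated cows and 6.41, 6.14 and 6.38 in superovulated cows. Control cow 1 and stimulated cow 3, the cows high for ATF4 in their groups, were also the high cows for DDIT3, while superovulated cow 1 stood apart for ATF4 but not for DDIT3. The group differences of DDIT3 were -0.05, -0.32 and -0.28, the second with an SE of 0.348 and an interval from -1.13 to 0.48.

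EIF2AK3 (PERK), a kinase that slows translation, was dim, at 5.15, 5.28 and 5.05 in control cows, 4.84, 5.43 and 5.43 in stimulated cows and 5.34, 5.81 and 5.44 in superovulated cows. All superovulated cows lay above all control cows. The difference was 0.37 (SE 0.186, interval -0.06 to 0.80, adjusted p = 0.82), and that of stimulated from control was 0.07 (adjusted p = 0.97).

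**Figure D3:**
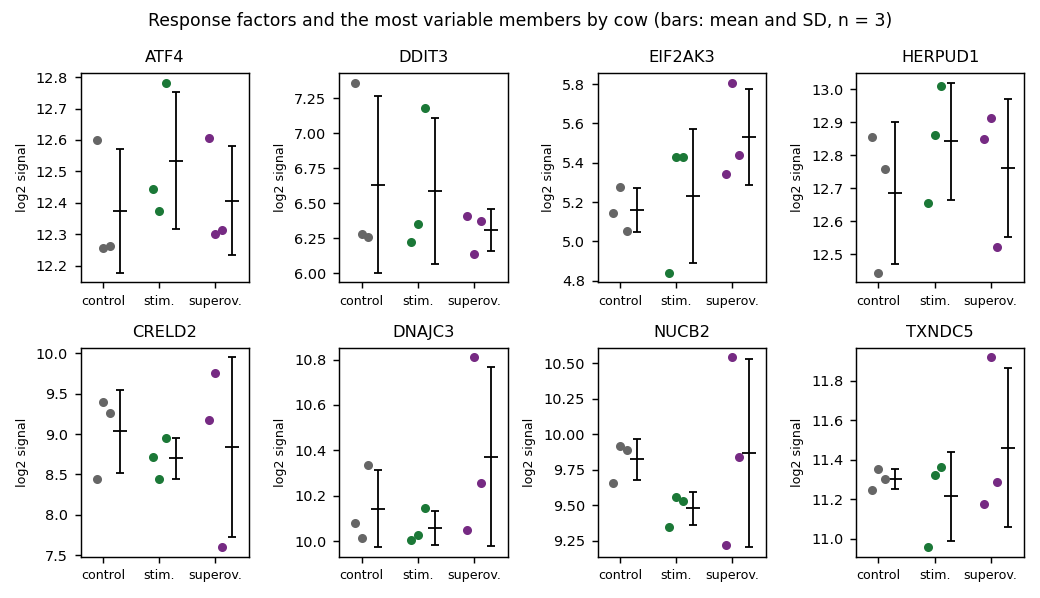
log2 signal (vertical axes, each with its own range, not starting at 0) of the 3 response factors, the degradation gene HERPUD1 and 4 variable folding genes, with a point per cow and bars for the mean and SD of 3 cows. ATF4 and DDIT3 each have a single high cow among controls and among stimulated cows, and NUCB2, DNAJC3 and TXNDC5 have a single high superovulated cow.

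The genes of the degradation pathway divided evenly between stimulated and control cows, with 3 of 6 lower, a median of -0.03 and overlap for all 6. VCP, the ATPase that extracts proteins from the membrane, read 12.88, 12.62 and 12.67 in control cows, 12.61, 12.48 and 12.71 in stimulated cows and 12.63, 12.53 and 12.70 in superovulated cows. Its differences from control were -0.12 (SE 0.096, adjusted p = 0.88) and -0.11 (adjusted p = 0.89). HERPUD1, a stress-inducible partner of the ubiquitin ligase, read 12.85, 12.44 and 12.76 in control cows, 12.66, 12.86 and 13.01 in stimulated cows and 12.85, 12.91 and 12.52 in superovulated cows, a difference of 0.16 in stimulated cows (adjusted p = 0.90).

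DERL1, a derlin of the exit channel, read 10.82, 10.56 and 10.78 in control cows, 10.67, 10.39 and 10.82 in stimulated cows and 10.75, 10.77 and 10.89 in superovulated cows. Superovulated cows averaged 0.18 above stimulated cows (adjusted p = 0.68), the groups overlapping. DERL2, a second derlin, read 11.50, 11.33 and 11.51 in control cows, 11.41, 11.17 and 11.47 in stimulated cows and 11.32, 11.50 and 11.49 in superovulated cows, a difference of 0.09 between the treated groups (adjusted p = 0.81). SYVN1 (HRD1), the ubiquitin ligase, read 9.69, 9.75 and 9.66 in control cows, 9.64, 9.48 and 10.16 in stimulated cows and 9.75, 10.20 and 9.75 in superovulated cows. Stimulated cow 3 and superovulated cow 2 stood above the rest, and the difference of superovulated from control was 0.20 (adjusted p = 0.90). SEL1L, its adaptor, differed from control by 0.04 and 0.03.

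In superovulated against control cows the 46 genes showed no common direction. Their means were higher for 26 and lower for 20, with a median difference of 0.02, beside 0.01 over all genes. By limma 0 of 46 passed, with a smallest adjusted p of 0.82, and of all genes 0.0% passed as higher, 0.0% as lower and 0.0% in either direction. At an unadjusted p under 0.05 the count was 0 of 46 each way, beside 3.13% higher and 2.15% lower of all genes. Every superovulated cow lay above every control cow for 2 genes, SSR3 and EIF2AK3, beside 5.53% of all genes, and the reverse held for 0 genes, beside 4.07%.

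The class medians against control were 0.00 for chaperones, 0.03 for isomerases, 0.00 for the translocon and transferase, 0.03 for response factors and 0.05 for degradation genes. SDF2L1 had the smallest p among chaperones, with a log2 difference of 0.15 (adjusted p = 0.83). DDOST, a subunit of the oligosaccharyltransferase, read 12.39, 12.35 and 12.21 in control cows, 12.09, 11.92 and 12.42 in stimulated cows and 11.88, 12.23 and 12.14 in superovulated cows, with a difference of -0.23 (SE 0.145, adjusted p = 0.85). Only superovulated cow 2 overlapped the controls.

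TXNDC5, an isomerase with thioredoxin domains, read 11.25, 11.35 and 11.30 in control cows, 10.96, 11.32 and 11.37 in stimulated cows and 11.18, 11.92 and 11.29 in superovulated cows. Its difference of 0.16 (adjusted p = 0.92) came with 1 high cow, superovulated cow 2, and a second probe set gave 0.37. TXNDC12 read 10.68, 10.42 and 10.48 in control cows, 10.73, 10.42 and 10.83 in stimulated cows and 10.60, 10.25 and 10.51 in superovulated cows, a difference of -0.07 (adjusted p = 0.95) in which cow 2 was the low one.

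In superovulated against stimulated cows 34 of 46 genes had higher means, while 53.24% of all genes did. The median difference was 0.11, beside 0.01 over all genes. This comparison and that of stimulated with control share the stimulated cows, so they are not separate evidence on those cows, and it shares the superovulated cows with the comparison just given. By limma 0 of 46 passed, with a smallest adjusted p of 0.33, and of all genes 0.0109% passed as higher, 0.0% as lower and 0.0109% in either direction. At an unadjusted p under 0.05, 5 of 46 were higher (10.9%) and 0 lower, beside 4.85% and 4.17% of all genes. The 5 were SSR3, SEC61G, SDF2L1, HSP90B1 and STT3A, the last at 0.20 (adjusted p = 0.51).

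Every superovulated cow lay above every stimulated cow for 5 genes (10.9%), beside 7.16% of all genes, and the reverse held for 0 genes, beside 5.75%. These 5 were SSR3, SEC61G, SDF2L1, HSP90B1 and DAD1. By class, 14 of 15 chaperones had higher means (median 0.19), 4 of 6 isomerases (0.10), 11 of 16 translocon and transferase genes (0.11), 4 of 6 degradation genes (0.06) and 1 of 3 response factors (-0.13). ERP29 went the other way, at -0.11 (adjusted p = 0.65), as did TXNDC12 at -0.21, SEC63 at -0.13 and ATF4 at -0.13.

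**Figure D4:**
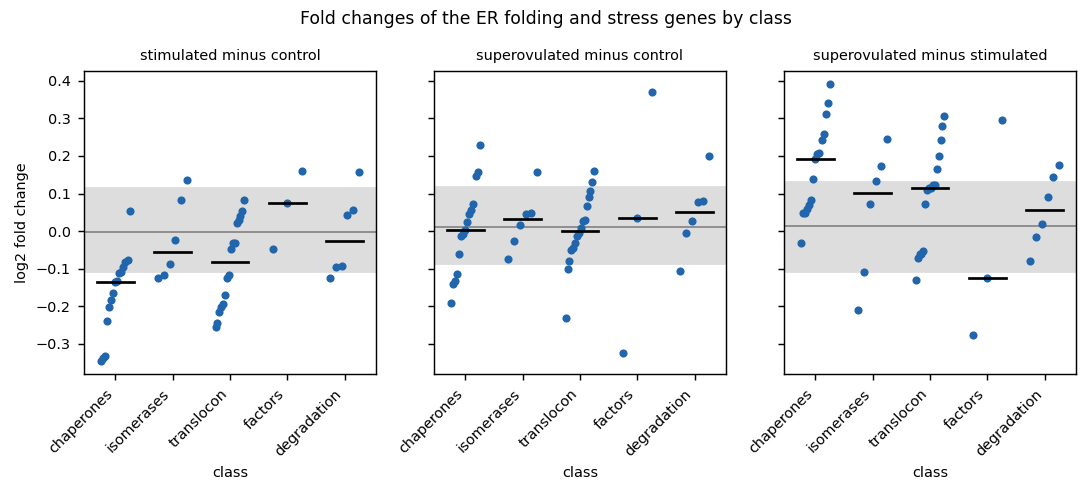
log2 difference (vertical axis) of each of the 46 genes (points) by class (horizontal axis) in the 3 comparisons (panels), with black bars at class medians and the grey line and band at the median and the quartiles of all 9134 genes. The band describes single genes and is no yardstick for a median. The chaperone median lies at -0.14 in stimulated minus control, at 0.00 in superovulated minus control and at 0.19 in superovulated minus stimulated.

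Taking the 3 groups at once, the stimulated group had the lowest mean for 30 of 46 genes (65.22%), while it had the lowest mean for 37.75% of all genes. This held for 14 of 15 chaperones, 9 of 16 translocon and transferase genes, 4 of 6 isomerases, 3 of 6 degradation genes and 0 of 3 response factors. The mean over the 15 chaperones was 10.68 ± 0.09 in control cows, 10.51 ± 0.07 in stimulated cows and 10.68 ± 0.22 in superovulated cows (SD, n = 3). Control and stimulated cows overlapped in this mean, with control cow 1 at 10.57 and stimulated cow 3 at 10.59. Over the 16 translocon and transferase genes it was 12.13 ± 0.01, 12.04 ± 0.06 and 12.13 ± 0.06.

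Single cows stood out in these patterns. Superovulated cow 2 held the highest of the 9 values for 25 of 46 genes (54.3%), beside 15.7% of all genes, with 11 of 16 translocon and transferase genes and 8 of 15 chaperones among them. Its chaperone mean was 10.93, against 10.57 and 10.54 in the other superovulated cows, which lay within the range of the stimulated cows (10.47 to 10.59). Stimulated cows 1 and 2 held the lowest value for 14 and 11 genes (30.4% and 23.9%), beside 9.77% and 13.8% of all genes. Stimulated cow 3 held the highest value for 8 genes (17.4%), beside 11.7% of all genes. These were ATF4, HERPUD1, SEL1L, DNAJB9, TXNDC12, ERP29, SEC63 and DDOST. The mean of that cow over the 46 genes, 11.26, lay at the top of the control values (11.23 to 11.26).

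Without superovulated cow 2, the median of superovulated against stimulated cows went from 0.11 to 0.04, that of the chaperones from 0.19 to 0.05, and the count under an unadjusted p of 0.05 from 5 to 3. The same count was 9 without superovulated cow 1 and 3 without control cow 3. Against control, leaving out superovulated cow 2 moved the median from 0.02 to -0.05, with 29 of 46 genes lower, among them 12 of 15 chaperones. The differences of superovulated from stimulated cows were 0.30 for SSR3, 0.25 for SEC61G, 0.23 for SDF2L1, 0.15 for HSP90B1 and 0.13 for STT3A without that cow.

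For stimulated against control cows, leaving out any 1 array kept the median between -0.14 and -0.07 and the number of lower genes between 31 and 38 of 46. The number of lower chaperones stayed between 13 and 15 of 15. The count under an unadjusted p of 0.05 went from 3 to 6 without superovulated cow 2, which enters only the estimate of spread, and to 5 without either of the other superovulated cows, and its lowest value was 2, without control cow 2 among others.

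**Figure D5:**
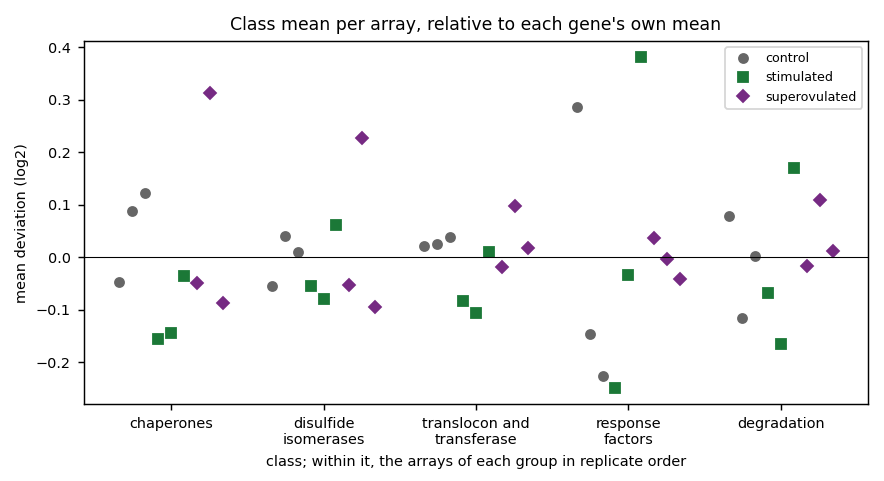
Mean over the genes of each class of the log2 difference from each gene's own mean (vertical axis), with 1 symbol per array and the arrays of a group in replicate order (horizontal axis). Superovulated array 2 is the highest symbol for chaperones, isomerases and translocon genes, and the chaperone means of stimulated arrays 1 and 2 are the lowest.

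Other cell types were set beside these patterns. Superovulated cow 2 also had the highest mean of 8 fibroblast markers, 12.17 beside 11.04 to 11.77 in the other 8 cows. COL1A1, COL1A2, COL3A1, DCN, LUM and PDGFRA were highest in that cow, PDGFRA at 11.14 beside 6.09 to 9.25. THY1 was at its lowest there, 5.525, and FBLN1, at 10.77, lay below all controls. The same cow had the highest mean of 11 surface epithelium and oviduct markers, 3.64 beside 2.88 to 3.08. That list was added after the values were seen, and all of its means were dim. Markers of plasma and B cells, a cell type rich in this organelle, had means over 6 of 11 listed markers of 4.00 to 4.23 in control, 4.14 to 4.43 in stimulated and 3.75 to 4.31 in superovulated cows. Within that list MZB1, POU2AF1, CD79A and MS4A1 were at 1.97 to 3.14 on all arrays, while JCHAIN, the joining chain of secreted antibodies, was at 7.50 to 8.90 and PRDM1 at 5.24 to 8.16. The part of fibroblasts, epithelium and plasma cells in the results was not tested.

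Endothelial markers (9 of 10 listed) had means of 6.18 to 7.05 in control, 6.62 to 7.06 in stimulated and 6.58 to 6.88 in superovulated cows. Markers of T and NK cells (10 of 10) had means of 3.21 to 3.55, 3.43 to 4.38 and 3.34 to 3.63, highest in stimulated cow 1. That cow held the lowest value for 14 of the 46 genes and also had the lowest fibroblast mean of the 9 cows, 11.04. Of the fibroblast markers COL1A1, COL1A2, COL3A1, LUM and PDGFRA were lowest there, while DCN, FBLN1 and THY1 were not. Stimulated cow 2, with the lowest value for 11 genes, had a T and NK mean of 3.43, within the control range. The part of these cell types was not tested.

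Beyond the 46 genes, 73 measured genes of the same pathways were set out in 5 further lists. In stimulated against control cows 40 of 73 had lower means (median -0.01), 0 passed the adjusted test, and at an unadjusted p under 0.05 4 were lower (5.48%) and 0 higher, beside 3.08% and 4.2% of all genes. In superovulated against control cows 38 were higher (median 0.00), 0 passed, and 2 were higher (2.74%) and 1 lower (1.37%) unadjusted, beside 3.13% and 2.15% of all genes. In superovulated against stimulated cows 44 were higher (median 0.05), 0 passed, and 6 were higher (8.22%) and 3 lower (4.11%) unadjusted, beside 4.85% and 4.17% of all genes.

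The list nearest to the translocon, 17 genes of signal recognition, the signal peptidase and further subunits of the oligosaccharyltransferase, had lower means in stimulated than in control cows for 14 of 17 (median -0.07), and the stimulated group had the lowest of the 3 means for 12 of 17. SPCS3, a subunit of the signal peptidase that trims entering proteins, read 11.11, 11.18 and 11.19 in control cows, 11.12, 10.65 and 10.81 in stimulated cows and 11.36, 11.12 and 11.11 in superovulated cows. Only stimulated cow 1 overlapped the controls, and the difference was -0.30 (adjusted p = 0.78). TMEM258, a small subunit of the oligosaccharyltransferase, differed by -0.17 (adjusted p = 0.78). SRP68, of the signal recognition particle, was 0.21 higher in superovulated than in control cows (adjusted p = 0.81).

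In the list of the PERK and ATF4 branch, which holds the kinase EIF2AK1 and the substrate EIF2S1 as well as targets, 7 of 13 were lower in stimulated than in control cows (median -0.01). SHMT2, a mitochondrial serine enzyme and an ATF4 target, read 8.71, 8.66 and 9.04 in control cows, 8.33, 8.30 and 8.62 in stimulated cows and 8.95, 9.08 and 9.003 in superovulated cows. The stimulated cows lay below all others, at -0.38 against control (SE 0.127, adjusted p = 0.70), and superovulated cows were 0.59 above them (adjusted p = 0.33). ATF4 itself had its highest group mean in stimulated cows, and lowest in control cows, but its groups overlapped. Its differences from control were 0.16 in stimulated and 0.03 in superovulated cows (limma adjusted p = 0.90 and 0.98). A link between ATF4 and SHMT2 in these cows was not tested.

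Among 22 genes of oxidation, calcium and sugar trimming, 14 were lower in stimulated than in control cows (median -0.04). TMX4, a membrane thioredoxin, differed by -0.41 (adjusted p = 0.77). TMX1, a relative, was 0.28 higher in superovulated than in control cows (adjusted p = 0.76). KDELR1, the receptor that returns escaped chaperones from the Golgi, read 10.38, 10.37 and 10.38 in control cows, 10.25, 10.34 and 10.38 in stimulated cows and 10.43, 10.60 and 10.64 in superovulated cows. It was higher in superovulated cows by 0.18 against control (adjusted p = 0.80) and 0.24 against stimulated cows (adjusted p = 0.43). SDF4, a calcium-binding protein of the Golgi, was lower in superovulated than in stimulated cows by a difference of -0.27 (adjusted p = 0.43).

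Among 7 membrane-bound transcription factors and their proteases, 5 were higher in stimulated than in control cows (median 0.10). CREB3L2, a stress-related factor that is cut in the Golgi, read 6.48, 6.23 and 6.87 in control cows, 6.46, 7.25 and 6.33 in stimulated cows and 5.90, 5.71 and 5.50 in superovulated cows. All superovulated cows lay below all other cows, at -0.83 against control (SE 0.264, adjusted p = 0.78) and -0.98 against stimulated cows (adjusted p = 0.38). CREB3L3, a relative, was lower in stimulated than in control cows (-0.36, adjusted p = 0.75) and higher in superovulated than in stimulated cows (0.38, adjusted p = 0.46).

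In the further degradation list 11 of 14 genes had higher means in stimulated than in control cows (median 0.03), against 3 of 6 in the degradation class above. OS9, a lectin that marks misfolded glycoproteins, was dim and read 0.19 higher in superovulated than in control cows (adjusted p = 0.81).

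The precision of these comparisons bounds what they could show. The 95% interval of a single gene reached a median of 0.23 on either side of its log2 difference, from 0.14 for PPIB to 1.2 for CRELD2. By the brightest probe set of each gene, none of the 46 had a difference beyond 0.5 in either direction in any of the 3 comparisons, while the dimmer probe sets of SSR3 (-0.63 and 0.87) and PDIA4 (0.77) did.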

How the data were processed

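Biotinylated cRNA was made from total RNA of 9 corpora lutea for Affymetrix bovine arrays, per the labels. The deposited values are in no standard unit: the authors' value table holds digit runs without a decimal mark. Not given in the sources used here are the probe summary, log base, normalisation and genome build. The mark was restored from the values. A run starting with 1 can be read as 1.x or 1x.x below a limit of 16 (15.5% of cells). Such probe sets were settled by the other arrays (1588) or by their spread between arrays at a posterior probability of 0.95 (2952 bright, 20 dim, with about 1.95 wrong readings expected). Of the 46 genes 37 rest on a probe set settled by spread, with a posterior of at least 0.9996, 3 on one settled by other arrays and 6 on one with no open run. The results, 0.852 to 15.36, are read as log2 signals, an assumption.

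After 58 undecided and 112 array control probe sets were left out, 23958 of 24128 probe sets were fitted with limma 3.58.1 in R 4.3.3 (lmFit, eBayes, 1 mean per group, all 9 arrays, 6 residual degrees of freedom, 2-sided, Benjamini-Hochberg over all probe sets, threshold 0.05), as tested on simulated data. No further normalisation or filter was applied. Gene symbols are those of the platform's probe table (13292 non-control probe sets with 1 symbol, 86 with several, 10638 with none), and the probe set with the highest mean stands for a gene. Groups do not overlap where every cow of one lies beyond every cow of the other.

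The members and all lists were chosen with earlier results of these data known, and the surface epithelium list was added after the values were seen. Any member may be named. Those given in full are HSPA5, ATF4, DDIT3 and, per comparison and class, the 2 with the smallest p; members whose groups do not overlap or that stand out in single cows were added after their values were seen. Of other pathway genes, the 5 with the smallest p per comparison are named.

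Same-numbered replicates correlated, as deviations from group means, at 0.159, 0.279 and -0.03 (control with stimulated), 0.084, 0.345 and 0.156 (control with superovulated) and 0.202, 0.376 and 0.153 (stimulated with superovulated). The labels state no pairing, and only the last comparison exceeds 0.1 in every pair. The number of arrays limits the precision.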

Additional observations from a re-analysis of the deposited data

How the results depend on the processing

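No gene of the 46 passed an adjusted p under 0.05 under any alternative that was run: quantile normalisation, median centring, without probe sets settled by spread, mean of all probe sets, a filter that kept the 15972 brightest probe sets, trend and robust eBayes, only the 2 groups compared, replicate block, and each array left out in turn. The median difference of stimulated from control cows ran from -0.1423 to -0.0671 when 1 array was left out and from -0.111 to -0.0931 under the other alternatives. That of superovulated from control ran from -0.0492 to 0.0457 when 1 array was left out, with -0.0492 without superovulated replicate 2, and that of superovulated from stimulated from 0.0436 to 0.1426, with 0.0436 without the same replicate. Without probe sets settled by spread, 9 of 46 genes remain in the fit. The counts under an unadjusted p of 0.05, by comparison, were 3, 0 and 5, and 3 for any difference. For stimulated against control they became 8 with only the 2 groups compared, 6 with median centring, 5 with trend and robust eBayes, and 0 without probe sets settled by spread. For superovulated against stimulated they became 3 with only the 2 groups compared or with that filter, and 1 without probe sets settled by spread. For any difference they became 5 with median centring, 6 without superovulated replicate 1, and 1 without probe sets settled by spread. With the replicate number as a block (replicate block) 0 genes passed, the smallest adjusted p by limma was 0.415, 0.591 and 0.2626, and the unadjusted counts were 5, 1 and 5, and 4 for any difference; the block changed no call. The sign differed from the one reported for at most 7, 15 and 6 of 46 genes in the 3 comparisons. The cause of these shifts was not tested. No detection calls were used, so signals near background could not be marked, and SDF2L1, with a mean of 3.81, is the dimmest of the 46 genes.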
